A study of Homo sapiens with 2 samples.

Results

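Among the 237608 transcript models of a direct RNA sequencing experiment, 50320 were of the class called NNC, which have at least 1 splice site that is not in the annotation catalog. The models described here are the 804 NNC models (1.60% of the class) with 5 or more reads in each of the 2 libraries. They lay in 519 genes: 796 models in 515 annotated genes and 8 models in 4 loci that the authors' table marks as antisense. The models were chosen by class and by their read counts in both libraries, so their levels are given as a description. Length and position of the genes played no part in the choice. Exon number entered only in that a model with a splice site has at least 2 exons.

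An intron is removed between a donor site at its 5′ end, which nearly always begins with GT, and an acceptor site at its 3′ end, which nearly always ends with AG. Cells may use a nearby alternative donor or acceptor, skip an exon, or begin or end the transcript at another exon, and each of these can bring in a splice site that no annotated transcript has. In direct RNA sequencing a native RNA strand is read from its 3′ end, so that a single read can show a whole chain of junctions, while strands that break or stop early lose the 5′ part.

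Both libraries were made from GM12878, a line of human B cells immortalised by Epstein-Barr virus. They form 1 group, replicates 1 and 2, with no treatment named in the labels, and both were read with the same kit and flow cell type. The labels do not say whether the replicates came from separate cultures, so the spread between them may be technical. Replicate 1 held 1360368 reads and replicate 2 held 1510998. All 10 B cell markers examined (such as CD79A and MS4A1) had reads in both libraries, from 54 to 10565 in replicate 1 and from 70 to 12221 in replicate 2. Of 10 markers of other lineages, 7 had 0 reads in both libraries, and the highest, CD3E, a T cell receptor component, had 5 and 16.

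The splice sites of the 804 models can be placed only indirectly, because the table gives the exon number and length of a model and no coordinates. Whether the ends of a new model were taken from the annotation or from its reads is not given in the sources used here, and a length difference can include the ends. Each model was therefore set beside the known (annotated) model of the same gene with the most reads, which existed for 753 of them. Of these, 550 (73.0%, 95% Wilson interval 69.8 to 76.1%) had exactly as many exons as the known model. Their lengths were often very close to it: 129 of the 550 (23.5%) lay within 20 bases. Within that window a single difference stood out, as the plot of small length differences shows. In 30 of the 129 (23.3%), the model was exactly 4 bases longer than the known model. The next most frequent difference was 3 bases shorter, with 11 models (8.53%), followed by 6 bases shorter with 7 models. Every other difference in the window had 6 models or fewer.

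**Figure D1:**
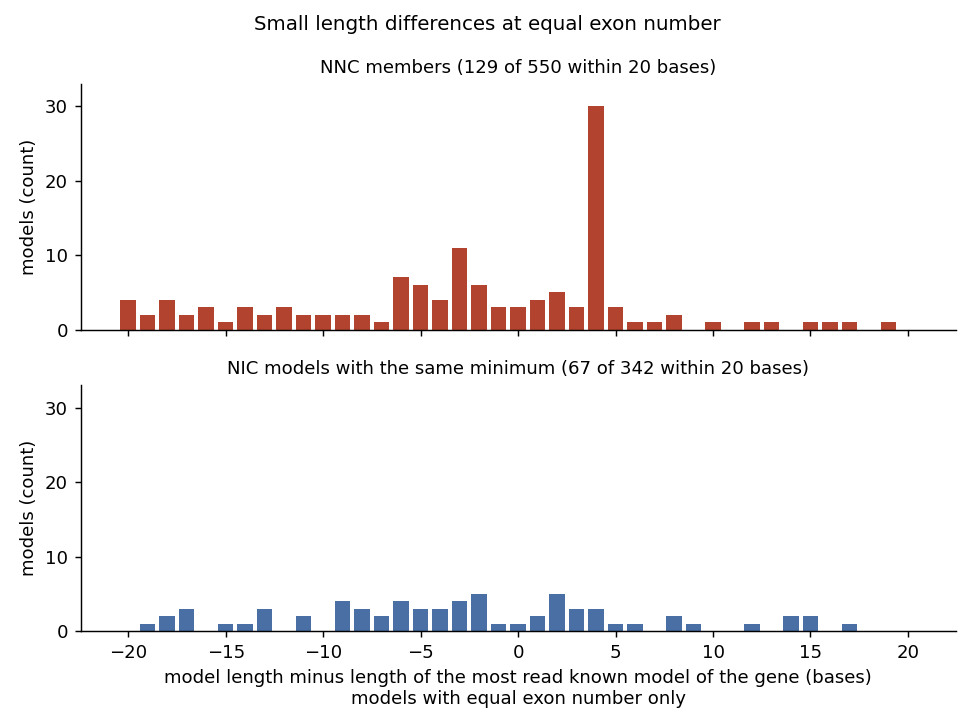
Number of models (vertical axis) at each length difference in bases from the most read known model of the same gene (horizontal axis), for models with equal exon number: NNC models with 5 or more reads in each library above, NIC models with the same minimum below. The NNC models peak at 4 bases longer, with 30 models, and at 3 bases shorter, with 11 models. No difference of the NIC models, which hold only annotated splice sites, has more than 5.

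The same count was made in other classes of models. NIC and known models hold only annotated splice sites. They cannot show a shift to an unannotated site, so their counts are a description and no control for it. NIC models, which join annotated splice sites in new combinations, had 3 of 67 within 20 bases at 4 bases longer (4.48%) and 4 at 3 bases shorter (5.97%). Known models with the same read minimum, other than the most read one of their gene, had 3 of 24 at 4 bases longer (12.5%) and 1 at 3 bases shorter (4.17%). NNC models with less support showed the 4-base difference too, at 97 of 559 models (17.4%) with reads in both libraries but under the minimum, and at 158 of 1775 (8.90%) with a single read. The 4-base share of the window was thus 8.90%, 17.4% and 23.3% from a single read to 5 or more reads in each library. The 3-base share was 3.89%, 6.44% and 8.53%. Against any annotated transcript of the gene with the same exon number, in place of the most read one, 35 models were 4 bases longer and 13 were 3 bases shorter.

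The sequences at annotated junctions show where such shifts could fit. Whether the cells made such shifts was not tested. A donor can move 4 bases into the intron if a second GT follows the first after 2 bases, that is, if the intron begins GTNNGT. An acceptor can move 3 bases into the exon if the exon begins with NAG, so that the second AG ends the 3 bases that are left out. Both patterns were searched on the transcribed strand only, at each annotated junction of the known models, in the transcript sequences of GENCODE release 29 (GRCh38). Intron bases were readable only where another annotated transcript covers them as exon. The following donor windows, shown for 5 of 9 genes, belong to known models with a partner exactly 4 bases longer and 1 readable GTNNGT junction. They run from 12 bases of exon into 14 bases of intron, 5′ to 3′, and capitals mark the 4 intron bases before the second GT.

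RPS21: attcgtaggatgGTGAgtgtttccct
SELENOH: cggacggcagcaGTAAgtggggacct
TMED9: ggaggcatgctgGTAAgtgggcccat
BLVRA: ggactacatcagGTGGgttttccaca
CD79A: tccgcgtgcgccGTGAgtggcccagc

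The RPS21 window is at chr20:62387903-62387928 (plus strand), the SELENOH window at chr11:57741943-57741968 (plus strand) and the TMED9 window at chr5:177593764-177593789 (plus strand). The BLVRA window is at chr7:43791357-43791382 (plus strand) and the CD79A window at chr19:41879278-41879303 (plus strand). All 5 annotated exon ends lie in coding exons, whereas among the genes not shown that of WDR4 lies in an untranslated part. The table does not say which junction of the model is the unannotated one, and the other junctions of these genes were read only in part, so a window is a place where the letters allow the shift and not a mapped site.

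RPS21 encodes a protein of the small ribosomal subunit; its model ENCODEHT000638726 (6 exons, 348 bases, against 344 in RPS21-201) had 20 reads in replicate 1 and 33 in replicate 2. SELENOH encodes a nuclear selenoprotein; ENCODEHT000359372 had 10 and 11 reads, 2.42% and 2.40% of the gene. In TMED9, a cargo receptor of the early secretory pathway, ENCODEHT000521001 had 9 and 11 reads, 4.04% and 4.0% of the gene. In BLVRA, which encodes biliverdin reductase A, ENCODEHT000319922 had 6 and 13 reads, and in CD79A, the alpha chain of the B cell receptor signalling unit, ENCODEHT000498768 had 5 and 5. These counts are small, and none of these 5 models passed the test of the share of gene reads between the libraries that is described further on.

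Letters that allow a 4-base donor shift are common. Of the 143 junctions of the 28 known models with a partner 4 bases longer, 42 had readable bases and 20 of these (47.6%) began GTNNGT. Over all known models with the read minimum the share was 2909 of 7441 readable junctions (39.1%). At least 1 readable GTNNGT was found in 14 of the 28 known models (50%), which belong to 15 of the 30 longer models. It was found in 46.3% of the 5223 known models with the read minimum and more than 1 exon. Models without a readable junction count as lacking it in both shares. An acceptor with an AG placed for a 4-base extension was found at 0 of 39 readable junctions, and at 7 of 7372 over all known models (0.09495%). Both counts were thus near those over all known models.

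The acceptor windows below join the last 12 bases of an annotated exon to the first 15 bases of the next, 5′ to 3′ in the mature RNA. They belong to known models with a partner exactly 3 bases shorter and 1 NAG exon start, and capitals mark the 3 bases that a shift would leave out. The same genes and windows were left out as for the donors. The window of CCDC167, whose model had 9 and 9 reads, is not shown.

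UQCRH: gatcctgaggagGAGgaagaggaagag
PSMB7: ccagacatggagGAGgaggaagccaag
RPL10A: agaagccatgagCAGcaaagtctctcg
GTF3C6: gaggaagaggagGAGcagttggttctg
DUSP2: acttcctgcgagGAGgcttcgacggct
SDF2L1: tccaacaaccagGAGgtgagtgccttt

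On GRCh38, the exon begins at base 46309101 of chromosome 1 in UQCRH (exon 2 of UQCRH-201, plus strand), at 124356915 of chromosome 9 in PSMB7 (exon 7, minus strand) and at 35468799 of chromosome 6 in RPL10A (exon 2, plus strand). It begins at 110959172 of chromosome 6 in GTF3C6 (exon 2, plus strand), at 96144882 of chromosome 2 in DUSP2 (exon 2, minus strand) and at 21643894 of chromosome 22 in SDF2L1 (exon 3, plus strand). All 6 starts lie in coding exons. Every junction was readable here, since the pattern is in the exon. Of the 58 junctions of the 11 known models, 11 began with NAG (18.97%), against 1211 of 25259 distinct junctions of all known models with the read minimum (4.79%). At least 1 such junction was present in 9 of the 11 models (81.8%), against 1179 of 5223 known models (22.6%). A donor letter pattern for the same loss of 3 bases, GT at the third base from the exon end, was present in 4 of the 11 (36.4%). It was present in 10.7% of the 5223 known models. By junction it was present at 4 of 58 (6.90%), against 509 of 25259 (2.015%). The shares of both patterns were thus higher in these 11 models than over all known models, with no test made.

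The median share of gene reads was higher in the models 3 bases shorter than in those 4 bases longer, with no test made. The 11 shorter models held from 1.21% to 23.96% of the gene reads in replicate 1 (median 8.67%) and from 0.768% to 16.1% in replicate 2 (median 6.06%). The 30 longer models held from 0.226% to 12.4% in replicate 1 (median 2.77%) and from 0.264% to 12.2% in replicate 2 (median 3.025%), so the ranges overlapped. UQCRH encodes the hinge protein of respiratory complex III; its model ENCODEHT000479719 (601 bases, against 604) had 79 and 82 reads, 16.1% and 15.3% of the gene, a mean of 15.7% ± 0.516 (SD, n = 2). PSMB7 encodes a catalytic subunit of the proteasome; ENCODEHT000589744 had 81 and 59 reads, 23.96% and 16.1%, and a second model of the gene that was 6 bases shorter, ENCODEHT000589736, had 25 and 19 reads. RPL10A, a protein of the large ribosomal subunit, and GTF3C6, a subunit of a transcription factor for RNA polymerase III, each had models at both differences. In RPL10A the models 4 bases longer had 152 and 108 reads (ENCODEHT000604610) and 25 and 17 reads (ENCODEHT000604602), and the model 3 bases shorter had 44 and 31. In GTF3C6 the shorter model had 33 and 16 reads and the longer one 9 and 6. RPL10A and other ribosomal protein genes have many near-identical pseudogene copies, so that some of their reads may be assigned among copies.

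The reads of the 804 models ranged from 5 to 896 in replicate 1 (median 13) and from 5 to 810 in replicate 2 (median 11). The lower of the 2 counts was exactly 5 in 134 models, just inside the minimum, and exactly 4 in 178 NNC models just outside it. At least 20 reads in each library were reached by 186 models, and at least 100 by 21. The 804 models together held 21433 reads, 1.58% of replicate 1 (95% Wilson interval 1.56 to 1.60%), and 18052 reads, 1.19% of replicate 2 (1.18 to 1.21%), on average 1.39% ± 0.269 (SD, n = 2). These were 35.9% and 38.2% of all NNC reads. A further 524 NNC models reached 5 reads in replicate 1 only and 202 in replicate 2 only. Of these 726, 69 had 0 reads in the other library, with at most 15 reads in the first.

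**Figure D2:**
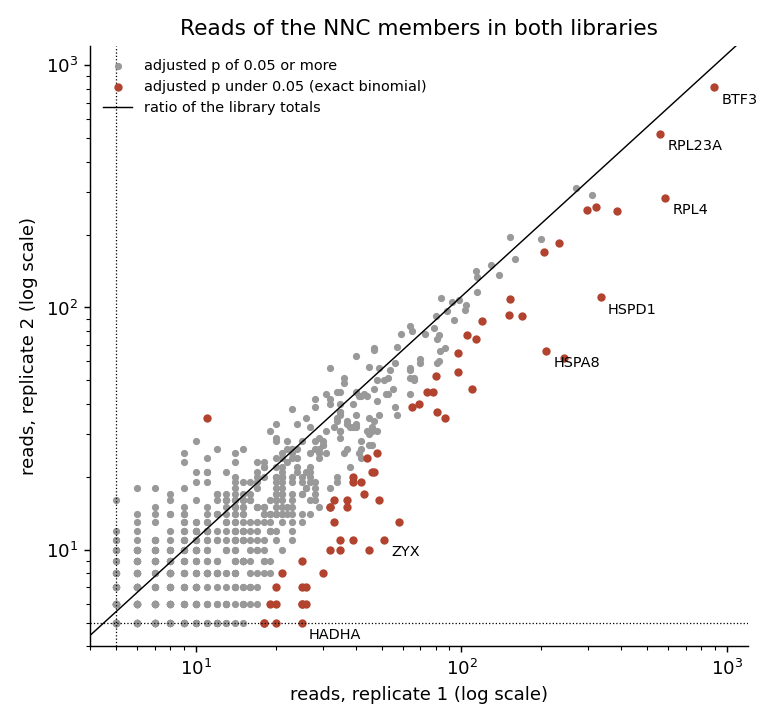
Reads of each of the 804 NNC models in replicate 1 (horizontal axis) and replicate 2 (vertical axis), both on log scales; dotted lines mark the minimum of 5 reads and the solid line the ratio of the library totals. The 65 red points passed an exact binomial test at an adjusted p of 0.05, and 64 of them lie below the line.

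BTF3, a subunit of the nascent polypeptide-associated complex at the ribosome exit, held the most read model, ENCODEHT000294619, with 896 and 810 reads; its known model BTF3-201 had 1 read in each library. PHB2 encodes prohibitin 2 of the inner mitochondrial membrane (chromosome 12, 6965327 to 6970825). Its model ENCODEHT000602189 had 321 and 260 reads, 43.7% and 31.9% of the gene, while the most read known model had 2 and 0. GPX4 encodes a glutathione peroxidase that reduces lipid hydroperoxides (chromosome 19, 1103926 to 1106791). Its model ENCODEHT000283813 had 6 exons, 1 fewer than GPX4-201, and 233 and 184 reads against 101 and 78 of that known model. TPT1, a translationally controlled tumour protein, and RPL4, of the large ribosomal subunit, had models with 298 and 252 reads and with 584 and 283 reads. In both, the known model was far more read: TPT1-212 had 3849 and 3367 reads and RPL4-201 had 1331 and 721.

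Such models were found more often in genes with more reads, where a fixed minimum is easier to reach. Of the 10025 annotated genes with 5 or more reads in each library, 5.14% had at least 1 of the models. The share was 0.244% of the 3685 genes with fewer than 20 reads in the library with fewer, and 14.5% of the 1594 genes with at least 100 and fewer than 500. It was 50.7% of 201 genes with at least 500 and fewer than 2000 reads (95% Wilson interval 43.9 to 57.6%) and 77.8% of 117 genes with 2000 or more (69.4 to 84.4%). The part of the gene that a model took went the other way: the median share in replicate 1 was 16.4% in genes of at least 20 and fewer than 100 reads and 0.323% in genes of 2000 or more. Both directions follow in part from the minimum of 5 reads itself.

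Cytosolic ribosomal protein genes, which code for the protein part of the ribosome, carried 182 of the 804 models, in 70 of 86 genes read (81.4%), beside 261 known models with the same minimum. These models were minor, with a median of 0.352% of the gene reads in replicate 1 and 0.339% in replicate 2, and none was the most read model of its gene in both libraries. Nuclear genes of the respiratory chain had 40 models in 25 of 109 genes, with medians of 2.59% and 2.72%. Proteasome genes had 25 models in 17 of 52 genes, with medians of 3.27% and 2.91%, among them PSME2, an activator subunit induced by interferon, whose model ENCODEHT000303819 had 113 and 74 reads. Genes of antigen presentation by MHC molecules had 27 models in 9 of 25 genes. CD74, the invariant chain of MHC class II, had 7 of these, which together took 2.43% and 2.06% of its reads.

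Cytoskeleton genes had 21 models in 12 of 48 genes, translation factors 18 in 12 of 71, splicing factors 16 in 11 of 67, and chaperones 11 in 8 of 59. All lists were drawn by gene symbol, EEF and EIF for translation factors, and can hold genes of other function, such as EIF2AK1. Among the splicing factors, SNRPG, a core protein of the spliceosomal small nuclear RNPs (chromosome 2, 70281362 to 70293771), had a model of 3 exons, ENCODEHT000378220, with 80 and 92 reads. That was 29.3% and 34.6% of the gene, a mean of 31.95% ± 3.74 (SD, n = 2), where the known model SNRPG-201 has 4 exons and 112 and 96 reads. The 15 mitochondrially encoded genes read, which have no introns, had none. For all annotated genes the corresponding figure was 515 of 10025. The groups differ in how many reads their genes have, and the part of this in the shares was not tested.

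**Figure D3:**
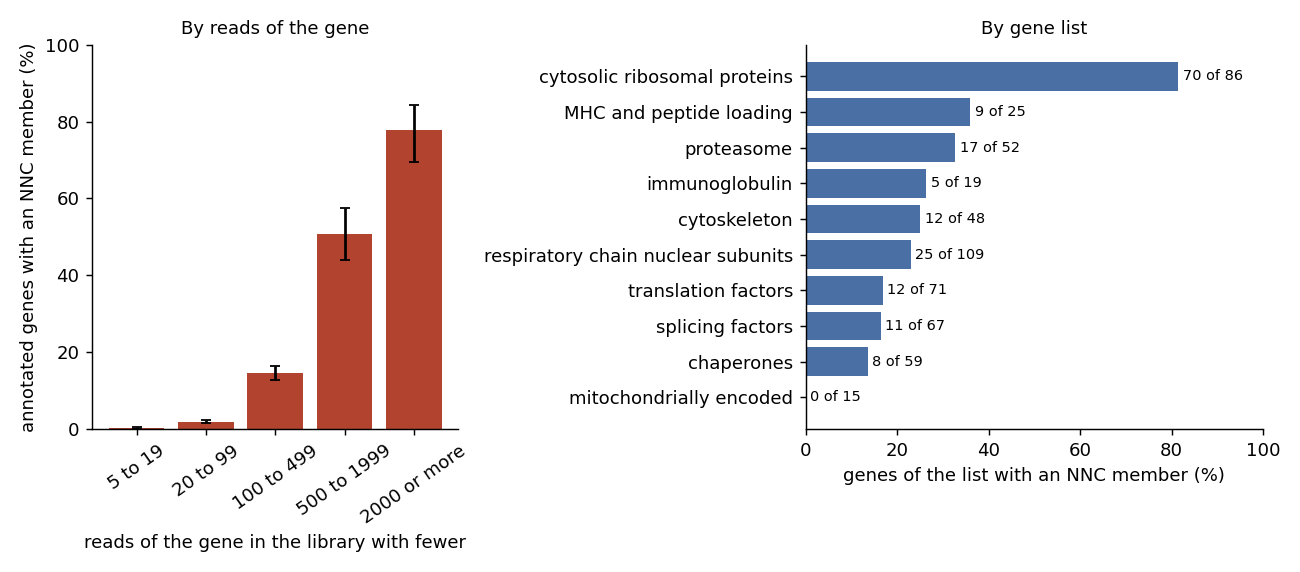
Left, percent of annotated genes with at least 1 NNC model of 5 or more reads in each library, by the reads of the gene in the library with fewer (bars with 95% Wilson intervals), from 0.244% to 77.8%. Right, the same percent by gene list, with the number of genes, from 0 of 15 mitochondrially encoded genes to 70 of 86 cytosolic ribosomal protein genes.

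Several models often shared a gene: 155 genes held 2 or more, 440 models in all. NPM1, which encodes the nucleolar chaperone nucleophosmin (chromosome 5, 171387116 to 171411137), had the most, with 8. All 8 had 11 exons, as does NPM1-201, with lengths from 1253 to 1344 bases and from 5 to 40 reads in replicate 1 and 5 to 33 in replicate 2. Together they took 3.19% and 2.58% of the gene. RPS18, of the small ribosomal subunit, had 7 models, all of 6 exons and 516 to 547 bases, with 552 and 537 reads together, 5.88% and 5.33%. RPL32 also had 7, but with 3 to 5 exons and 464 to 1220 bases. GAPDH and ENO1, enzymes of glycolysis, had 6 each, all of 9 and all of 12 exons respectively. Models of 1 gene share reads of the same source and are not independent of each other, and NPM1, RPS18, RPL32 and GAPDH have many processed pseudogenes.

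A typical model was a small part of its gene. The median share of gene reads was 2.15% in replicate 1 (interquartile range 0.593 to 6.95%) and 1.89% in replicate 2 (0.4795 to 5.46%), on average 2.02% ± 0.181 (SD, n = 2). Known models with the same read minimum had medians of 35.3% and 21.7%, and NIC models 2.23% and 1.60%. Over 10% of the gene in both libraries was reached by 101 of the 804 models (12.6%), against 71.4% of the 5840 known models, and over 50% by 11. The model had more reads than every other model of its gene in both libraries in 39 cases (4.85%), against 2532 of 5840 known models (43.4%) and 48 of 764 NIC models (6.28%). It did so in replicate 1 only in 23 further cases and in replicate 2 only in 3. When only known, NIC and NNC reads were counted, which leaves out incomplete and unspliced reads, the number was 77 in place of 39.

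The dominant models were in genes of varied function. EXOSC4 encodes a core subunit of the RNA exosome (chromosome 8, 144078626 to 144080647), and its model ENCODEHT000552842 of 3 exons had 87 and 68 reads, 90.6% and 76.4% of the gene. HIST1H2BJ, a histone H2B gene (chromosome 6, 27125897 to 27132750), had a model of 2 exons and 1778 bases, ENCODEHT000553583, with 199 and 191 reads. This was 79.9% of the gene in each library, and the second model of the gene, ENCODEHT000553607, had 30 and 27 reads. SDHD, a membrane anchor of respiratory complex II, had a model with 35 and 31 reads, 77.8% and 62.0%. COPRS, which encodes a cofactor of the arginine methyltransferase PRMT5 (chromosome 17, 31851864 to 31859337), had no known model with a read. Its model ENCODEHT000348961 had 44 and 43 reads, 64.7% and 66.2%, a mean of 65.4% ± 1.02 (SD, n = 2). NDUFS8, an iron-sulfur subunit of respiratory complex I (chromosome 11, 68030617 to 68036644), had 138 and 136 reads in ENCODEHT000475700, 49.1% and 49.3%. The most read known models of the last gene and of HIST1H2BJ had 1 and 0 reads in NDUFS8-202 and 9 and 5 in HIST1H2BJ-202.

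PRL, which encodes the hormone prolactin and is known to be transcribed in lymphoid cells from a promoter upstream of the pituitary one, had a model with 6 exons, ENCODEHT000551230 (gene at chromosome 6, 22287244 to 22297501, minus strand). It had 42 and 24 reads, 47.2% and 32.0% of the gene, against 13 and 9 reads of PRL-201, which has 5 exons. The annotation holds a transcript of PRL with as many as 6 exons, from which the model differed by -278 bases.

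Set against the most read known model, 81 of the 753 models had more exons (10.8%) and 122 had fewer (16.2%). A single exon made the difference in 47 and 106 of these. At least 8 additional exons were found in 19 models. TMEM214-210, for example, has 2 exons and had 6 and 8 reads, and the model ENCODEHT000266387 of that gene has 17 exons and had 39 and 11 reads. SNX2, a sorting nexin of the endosome (chromosome 5, 122774996 to 122830108), had ENCODEHT000355521 with 15 exons, 49 and 16 reads, against 2 exons and 1 read in each library for SNX2-206. That model was 4 bases longer than an annotated transcript of the gene with 15 exons. Only 16 of 796 models (2.01%) had more exons than any annotated transcript of their gene. These included TMSB4X, which encodes an actin-binding thymosin, with 4 exons where the annotation has at most 3 and 26 and 35 reads, and AHCY, which hydrolyses S-adenosylhomocysteine, with 11 exons against 10 and 37 and 26 reads.

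In length, the models ran from 231 to 3678 bases with a median of 990.5, whereas known models with the same read minimum had a median of 1614 bases and reached 27174. The median number of exons was 6 (range 2 to 24), and 5 in the known models, which, unlike the NNC class, include models of 1 exon. Within genes, 615 of the 753 models (81.7%, 78.8 to 84.3%) were shorter than the most read known model, 135 were longer and 3 were equal, with a median difference of -125 bases. The comparison depended on the model chosen: against the nearest annotated transcript with the same exon number, 63.4% of 733 models were shorter and the median difference was -14 bases. The longest models were those of TNFRSF8, the CD30 receptor of activated lymphocytes (3678 bases, 8 and 5 reads), and of LCP1, the leukocyte actin bundler plastin 2 (3676 bases, 58 and 13 reads). The model with the most exons, 24, was in COPG1, a coat protein of Golgi vesicles, with 25 and 6 reads.

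The 2 libraries were then compared read by read, in tests that concern these libraries and not conditions. Each pair of counts was set against the totals of both libraries in an exact binomial test (two-sided), with Benjamini-Hochberg adjustment over 19698 known, ISM (incomplete splice match), NIC and NNC models with 10 or more reads. Of the 804 models, 64 (7.96%) were lower in replicate 2 and 1 (0.124%) was higher at an adjusted p of 0.05. Over all models tested, 9.68% were lower and 7.98% higher, 17.7% in all. Among the 15061 of these with the read minimum in each library, 10.2% were lower and 7.93% higher (18.1% in all). Among the 5840 known models with that minimum, 21.4% were lower and 4.18% higher (25.5% in all). The 8.08% of the 804 models that passed was thus below each of these shares; the depth of the models differs between the classes. A model with fewer than 5 reads in either library could not be among the 804, which limits how far they can differ. The median log2 ratio of replicate 2 to replicate 1, after adding 0.5 reads, was -0.30, against -0.40 in those known models and 0.02 over all models tested.

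The decrease in replicate 2 was greater in the longer models. In the 202 models of 231 to 665 bases the median log2 ratio was -0.03, and 105 (52.0%) were lower in replicate 2. In the 200 models of 666 to 990 bases it was -0.25, and in the 201 models of 991 to 1494 bases -0.33. In the 201 models of 1504 to 3678 bases it was -0.67, with 177 (88.1%) lower and 38 of the 64 decreases that passed the test. Known models with the read minimum fell in the same order, from 0.17 in the shortest of these bins to -0.66 in the longest. These medians are over models, which are not replicates, and all share the same 2 libraries.

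**Figure D4:**
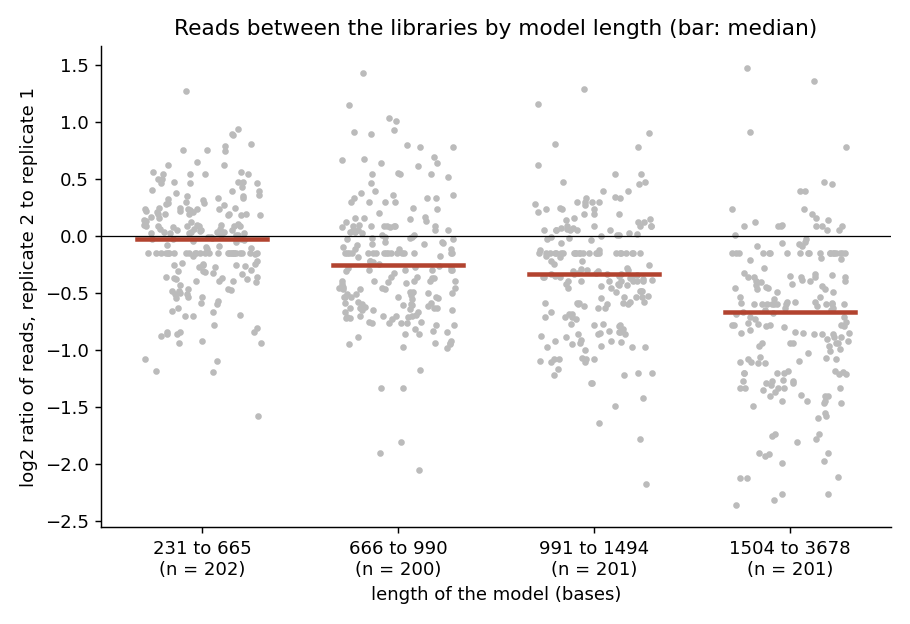
Log2 ratio of the reads of each NNC model, replicate 2 to replicate 1 scaled to the library totals (vertical axis), in 4 bins of model length (horizontal axis); each point is a model and the red bar is the median. The medians are -0.03, -0.25, -0.33 and -0.67 from the shortest to the longest bin.

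Among the decreases, HADHA, the alpha subunit of the mitochondrial trifunctional protein of fatty acid oxidation, had 25 and 5 reads in a model of 20 exons. Its log2 ratio was -2.36, with an adjusted p of 0.00104 by the exact binomial test. ZYX, the focal adhesion protein zyxin, had 51 and 11 reads in ENCODEHT000469881, 5 bases shorter than ZYX-201, which came to -2.31 on the log2 scale (exact binomial, adjusted p = 8.44e-07). HSPD1, the mitochondrial chaperonin HSP60 (chromosome 2, 197486581 to 197516737), had 335 and 110 reads in a model of 12 exons and 3065 bases, which came to -1.75 on the log2 scale (exact binomial, adjusted p = 1.23e-30). The increase was that of ENCODEHT000622705 in EEF1A1, the elongation factor that carries aminoacyl-tRNA to the ribosome, from 11 to 35 reads, or 1.475 on the log2 scale (exact binomial, adjusted p = 0.01401). This model has 5 exons where EEF1A1-201 has 8, and EEF1A1 has many processed pseudogenes.

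The share of gene reads was compared with a two-sided Fisher's exact test of the model against all other reads of its gene, adjusted over 19265 models. Of 803 models tested, 55 (6.85%) had a lower share in replicate 2 and 1 (0.125%) a higher share, together 6.97%. Over all models tested 10.6% were lower and 8.93% higher, 19.5% in all, and over the 14697 with the read minimum 11.6% and 9.06%, 20.7% in all. Known models with the minimum had 26.3% lower and 3.06% higher, 29.4% in all. HSPD1 held 29.9% and 11.7% of its gene (adjusted p of 1.985e-22), and CCT8, a subunit of the cytosolic chaperonin, 34.6% and 15.6% in ENCODEHT000227561 (adjusted p of 2.995e-11). SNX2 held 50.5% and 20.3% (adjusted p of 0.000573) and LCMT1, which methylates protein phosphatase 2A, 59.3% and 31.0% (adjusted p of 0.0264). EEF1A1 held the single higher share, 0.0634% and 0.158% in ENCODEHT000622705 (adjusted p of 0.0386). In this test 4 of 11 models in chaperone genes, both models of CCT8 among them, and 6 of 182 in ribosomal protein genes passed with a lower share. None of either group passed with a higher one. The lower share was found in 3 of 16 models of splicing factors, 3 of 18 of translation factors and 3 of 27 of MHC genes. It was found in 1 of 25 proteasome, 1 of 40 respiratory chain, 1 of 21 cytoskeleton and 0 of 10 immunoglobulin models. The part of model length in these counts was not tested. Counted without the test, the share was lower in replicate 2 in 573 of the 804 models (71.3%), against 73.4% of known and 77.4% of NIC models with the same read minimum. The ISM models with that minimum went the other way, with 28.6% of 7653 lower.

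**Figure D5:**
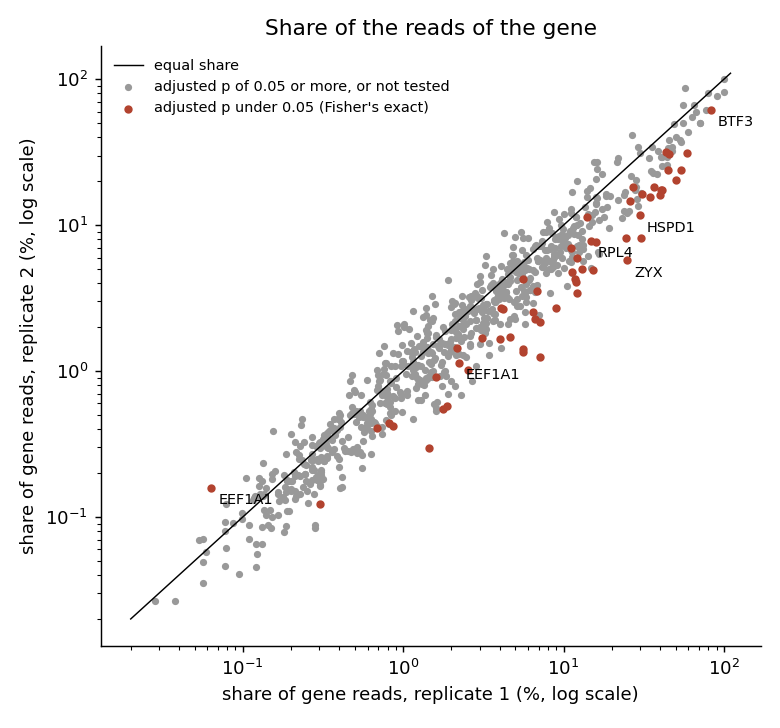
Percent of the reads of its gene held by each NNC model in replicate 1 (horizontal axis) and replicate 2 (vertical axis), both on log scales, with the line of equal share. Red points passed Fisher's exact test at an adjusted p of 0.05: 55 below the line and 1 above it, an EEF1A1 model.

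When the same test was limited to the known, NIC and NNC reads of each gene, which leaves out the incomplete and unspliced reads, 7 of the 803 models passed (0.872%), 3 lower (0.374%) and 4 higher (0.498%) in replicate 2. Over all 8584 models tested that way 5.62% passed, 2.39% lower and 3.23% higher. The median share was then 3.32% in replicate 1 and 3.57% in replicate 2, and 380 of the 804 models (47.3%) were lower. HSPD1 stood at 78.3% and 74.8% of these reads (adjusted p of 0.891) and SNX2 at 74.2% and 66.7% (adjusted p of 0.975), and neither passed. Nor did CCT8, at 50% and 38.7% (adjusted p of 0.110), or LCMT1, at 66.7% and 62.1% (adjusted p of 1.0). BTF3 stood at 93.5% and 90.3% (adjusted p of 0.150), after 82.7% and 61.6% of all its reads (adjusted p of 3.255e-28), in Fisher's exact tests. The 3 that were lower were models of EXOSC4, of TPM4, a tropomyosin, and of HSPA8, the constitutive HSC70 chaperone. EXOSC4 went from 96.7% to 81.9% (adjusted p of 0.0391), TPM4 from 7.55% to 2.17% (adjusted p of 0.00239) and HSPA8 from 10.4% to 6.75% (adjusted p of 0.0256). The 4 that were higher were models of EEF1A1, ENO1, RPL13A and IGHA2, with rises of 0.305 to 1.42 percentage points. Of the 56 calls made on all reads of the gene, 3 were also made here.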

How the data were processed

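A single table was deposited by the authors, with raw read counts for every transcript model, a column for each of the 2 libraries, and the exon number and length in bases of each model as other, non-measured properties. Its name shows that TALON made it; the submitters' processing notes name minimap2 and hg38, and versions, annotation release and read filters are not given in the sources used here. All 23533 known models matched GENCODE release 29 (GRCh38) in identifier, length and exon number, so gene positions and sequences come from it.

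NNC models with 5 or more reads in each library were selected. These models, the gene lists and the tests were chosen with earlier results of these data known. Genes named are the most read models, those with the highest share, most or fewest exons, extreme length, most models per gene, largest change in share or largest excess of exons, and up to 3 per list; other genes, and the analysis of small length differences, were chosen after values were seen. With 1 group no model of conditions was fitted; edgeR 4.0.16 and DESeq2 1.42.0 served for alternative scaling only. Tests used scipy 1.17.1, over models with 10 or more reads. They were also run on simulated counts that held counting error only, which cannot show how the tests behave under other variation between libraries. Wilson intervals cover counting error only. Alternatives covered the read minimum, denominators, comparison model, scaling and replicates left out.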

Additional observations from a re-analysis of the deposited data

How the results depend on the processing

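No paired analysis was possible because both libraries belong to a single group. A replicate left out gives the value of the other, 1.19 to 1.58% for the share of library reads, 1.89 to 2.15% for the median share of gene reads and 42 to 62 for models that lead their gene. At a minimum of 3 reads there were 1353 models, a median share of 1.66%, 52 models 4 bases longer and 20 models 3 bases shorter. At 10 reads there were 394 models, a median share of 2.85%, 24 that lead their gene, 15 models 4 bases longer and 7 models 3 bases shorter. Among models with 2 or more exons the share of library reads was 1.865%. The median share was 3.44% among known, NIC and NNC reads, 2.23% without genomic models and 1.82% in genes with 50 or more reads; 77 models led their gene among known, NIC and NNC reads. Against the longest known model, 53.4% had equal exon numbers, 90.4% were shorter and 18 were 4 bases longer. Against the annotated transcript with the most exons 46.98% had equal numbers, and against the nearest annotated transcript of equal exon number 63.4% were shorter. With every model tested whatever its reads, 32 of the 804 passed the abundance test, all among the 65. The adjustment then covered 209077 models, of which 1745 passed. In that setting the 804 passed more often than all models tested, which include models with a single read. Other scalings gave 56 to 67 of the 804, with 3374 to 3487 of all 19698 models passing. On use, 7 passed among known, NIC and NNC reads, 3 of them among the 56, against 482 of all 8584 models tested that way. The decreases of SNX2, LCMT1 and the model of the antisense locus ENCODEHG000063936 kept their direction there and did not pass. The higher share of the EEF1A1 model has no value among models with 50 or more reads, since it had fewer. The alternatives on small length differences were added after seeing the data.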

Other observations

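Of the 804 models, 8 lay in 4 loci that the authors' table marks as antisense to an annotated gene, where direct RNA reads keep the strand. In the locus ENCODEHG000063972, a model of 2 exons and 2025 bases had 243 reads in replicate 1 and 62 in replicate 2, and 4 other models of the locus had 87 and 35, 25 and 9, 30 and 8, and 15 and 9 reads. In the locus ENCODEHG000063936, a model of 2 exons had 37 and 15 reads, 54.4% and 23.8% of the locus (adjusted p of 0.003965, Fisher's exact test). Among known, NIC and NNC reads of the locus it held 60.7% and 36.6% and did not pass (adjusted p of 0.232, Fisher's exact test).

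Antigen receptor genes, whose segments are joined by rearrangement in lymphocytes, held 10 models in immunoglobulin genes and 2 in TRAC, the T cell receptor alpha constant gene. The immunoglobulin models were in 5 of 19 genes read, with 36 and 51 reads for the most read one, in IGHA2. In 9 of the 10, no known model of the gene had a read. The TRAC models had 5 exons, against 4 in the annotation, with 8 and 8 reads and 6 and 5 reads. Of the T cell markers examined, CD3E had 5 and 16 reads and CD3D had 0 in both libraries. Reads of segments and constant genes of similar sequence may be assigned among them, and this was not tested.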
